A study of Sus scrofa with 6 samples.

Results

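Red blood cells carry miR-451, miR-144 and miR-486, and these 3 miRNAs were followed in the left atrium (LA) of pigs with and without pacing-induced atrial fibrillation (AF). The miRNAs were picked by name, as a gauge of the blood left in atrial tissue, and because miR-486 was already known to be lower on the arrays of paced animals. The array held 1 probe for each, so the group had 3 of the 322 pig miRNA probes. The lower miR-486 of paced animals is therefore part of the choice, and the paced versus sham values of all 3 miRNAs are given as a description with no test.

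The LA RNA came from 3 sham and 3 paced animals, with 1 array hybridized per animal. The animals of both groups were Large White pigs, allotted at random. The paced animals received 3 bursts of rapid pacing through a catheter placed in the right atrium, after esmolol hydrochloride, a blocker of beta adrenergic receptors. Hearts of the paced animals were taken on the following day. The sham animals were operated on but not paced, and whether they received esmolol is not given in the sources used here. The methods give the age as 3 months, whereas the labels speak of neonatal piglets, and neither says whether blood was flushed from the tissue before freezing. The LA samples were whole tissue, in which fewer cells of a type and less RNA per cell cannot be told apart.

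miR-451 and miR-144 are made from a single primary transcript that the erythroid factor GATA1 switches on as red cell precursors mature. miR-451 is unusual in that its hairpin is too short for Dicer and is cut by Argonaute 2 instead, and it protects red cells from oxidative stress. miR-144 restrains NRF2, the regulator of the antioxidant response. miR-486 lies within the gene of ankyrin 1, a protein of the red cell membrane skeleton that also has a short form in muscle, and it is known from both red cells and muscle, where it targets the transcription factor FOXO1. Mature red cells keep these miRNAs after losing the nucleus, so that blood in a tissue contributes them to its RNA.

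The mature sequences, as the array was designed for them, show that the 3 miRNAs do not belong to a seed family. They are printed 5′ to 3′ with the seed, bases 2 to 8, in capitals.
miR-451: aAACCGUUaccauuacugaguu
miR-144: uACAGUAUagaugauguac
miR-486: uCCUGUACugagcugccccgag
No other probe of the array had any of these 3 seeds. The closest sequence to miR-144 was that of miR-101, which is shown because it differs at 1 of the 7 bases of the seed and by 7 single-base edits over the whole length.
miR-101: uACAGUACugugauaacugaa
The nearest probes to miR-451 (miR-582) and to miR-486 (miR-187 and miR-345-3p) were 9 and 8 edits away. The target of miR-451 had 36.4% G and C, that of miR-144 31.6% and that of miR-486 63.6%, against a median of 47.6% over the 322 probes. The miR-144 target was also short, at 19 bases, and only 4 probes had 19 bases or fewer. Of the 16 probes with as little G and C as miR-144, itself included, 4 were well above background on any array. In the Sscrofa11.1 gene table the genes of miR-451 and miR-144 lay within 10 kb of each other. Both overlapped the span of ERAL1, and the gene of miR-486 overlapped that of ANK1.

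Each array carried 786 empty spots, which held no probe and served to measure its background. Their median signal ranged from 64.7 to 214 scanner units on the sham arrays and from 242.5 to 399 units on the paced arrays. All 3 paced arrays thus had a higher background than any sham array. A probe counted as well above background where the median over its 9 repeat spots lay over 3 SD of the empty-spot signal above the empty-spot median, and 104 probes met this on all 6 arrays. Heart muscle markers were clearly present, with miR-1, miR-133a-3p and miR-499-5p well above background on all 6 arrays and miR-208b on 5. Of the 9 muscle probes, 6 were well above background on all arrays, and miR-206 and miR-499-3p were so on none.

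**Figure D1:**
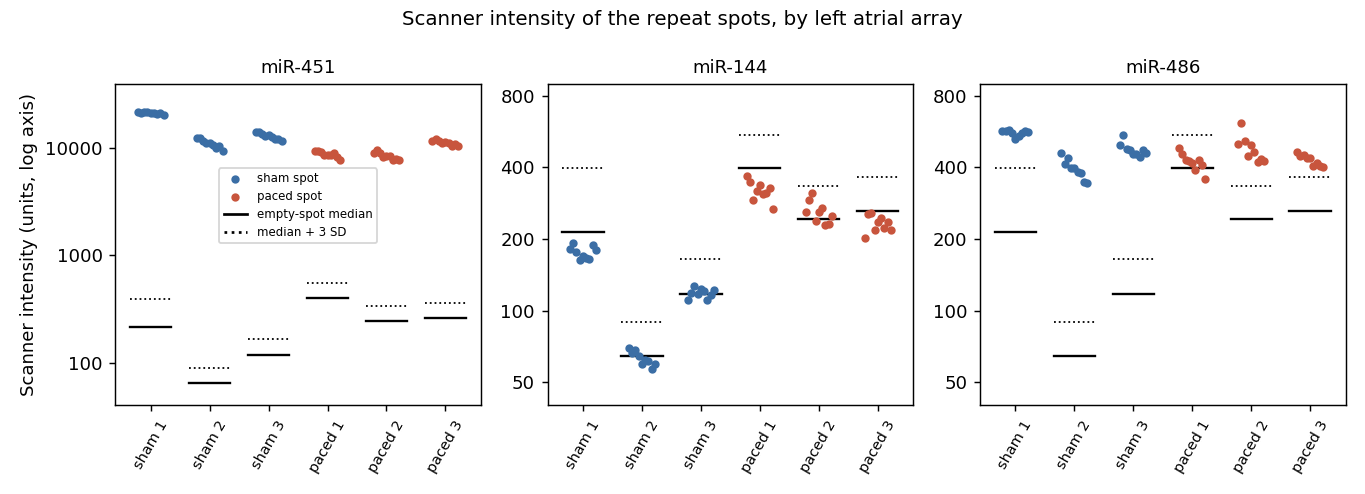
Scanner intensity (units, log axis) of the 9 repeat spots of miR-451, miR-144 and miR-486 on each of the 6 LA arrays. Solid lines are the empty-spot medians and dotted lines the medians plus 3 SD. The spots of miR-451 stood far above the lines on all arrays, those of miR-144 lay around the solid line, and those of miR-486 cleared the dotted line on 5 arrays.

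The probe of miR-451 gave a bright signal in the LA of every animal. The median of its repeat spots was 21341 scanner units in sham replicate 1, 11214 in sham replicate 2 and 12976 in sham replicate 3. The values of paced replicates 1, 2 and 3 were 8728, 8487 and 11126 units. Sham replicate 1 was by far the brightest, and the lowest sham array was only just above the highest paced array. These medians were from 99.7 to 173 times the empty-spot median on the sham arrays and from 21.9 to 42.6 times on the paced arrays. The brightest of all miR-451 spots, at 21980 units, was far below the brightest spot of the same array, at 56861 units, so the scale was not exhausted.

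The raw separation held for the median of the repeat spots but not for their mean. That mean was 11058 units in sham replicate 2 and 11260 in paced replicate 3. After background correction and quantile normalization between arrays, the sham and paced values of miR-451 overlapped with either summary of the spots. Its normalized log2 intensity was 14.02, 13.50 and 13.59 in sham replicates 1, 2 and 3. It was 13.52, 12.94 and 13.54 in paced replicates 1, 2 and 3. Sham replicate 1 remained the highest and paced replicate 2 was the lowest, while the other 4 animals lay within a narrow band that held both groups. The sham mean was 13.70 ± 0.28 (SD, n = 3) and the paced mean 13.33 ± 0.34 (SD, n = 3). Paced minus sham was -0.37 (SE 0.20), slightly larger than the pooled SD between animals of 0.31. This was the most negative difference among the 104 probes detected in this way on every array. It rested on the 2 outlying animals, being -0.17 without paced replicate 2 and -0.22 without sham replicate 1.

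The authors' own processed intensities of miR-451 gave the same picture. They were 15549, 11568 and 12160 in sham replicates 1, 2 and 3, and 11165, 7616 and 12247 in paced replicates 1, 2 and 3. The means were 13092 ± 2148 (SD, n = 3) and 10342 ± 2422 (SD, n = 3), and the groups overlapped.

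miR-144, which is transcribed together with miR-451, did not rise well above background in any animal. The median of its repeat spots was 176, 61.97 and 119 units in sham replicates 1, 2 and 3, and 318, 260 and 236 units in paced replicates 1, 2 and 3. All paced arrays lay above all sham arrays on this raw scale, as the empty spots themselves did. Relative to the empty-spot median of the same array, the miR-144 signal was 0.82, 0.96 and 1.01 in the sham replicates and 0.80, 1.07 and 0.90 in the paced replicates. On 4 of the 6 arrays the probe was therefore dimmer than the median empty spot.

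The normalized log2 intensity of miR-144 was 6.77, 6.68 and 6.75 in sham replicates 1, 2 and 3. It was 6.81, 6.72 and 6.68 in paced replicates 1, 2 and 3. The values intermingled, with a sham mean of 6.73 ± 0.04 (SD, n = 3) and a paced mean of 6.74 ± 0.07 (SD, n = 3). No fold is given, because both groups were at the level of the background, and a level below it could not have been measured.

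miR-486 was dim but measurable in most animals. The median of its repeat spots was 563, 398 and 474 units in sham replicates 1, 2 and 3, and 425, 462 and 438 units in paced replicates 1, 2 and 3. On this raw scale the 3 paced values lay between the lowest and the highest sham value. With the empty-spot median of each array taken off, the signal was 349, 334 and 357 units in the sham replicates. In the paced replicates it was 26.6, 220 and 176 units. The sham animals then lay close together, the paced animals lay below all of them, and paced replicate 1 was near the background.

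The means of this background-subtracted signal of miR-486 were 346 ± 11.6 (SD, n = 3) for sham and 141 ± 101 (SD, n = 3) for paced animals, so that the paced mean was 0.41 times the sham mean. Against the 15 empty spots nearest to each repeat spot, the signal was 329, 336 and 350 units in sham replicates 1, 2 and 3, and 46.1, 200 and 178 units in paced replicates 1, 2 and 3. The ratio of means was then 0.42. By either measure miR-486 was detected well above background in all 3 sham animals and in paced replicates 2 and 3, but not in paced replicate 1.

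The normalized log2 intensity of miR-486 was 8.47, 8.92 and 8.96 in sham replicates 1, 2 and 3. It was 7.88, 8.20 and 8.16 in paced replicates 1, 2 and 3. Replicate 1 was the lowest of its group in both groups, and the groups did not overlap. The sham mean was 8.78 ± 0.27 (SD, n = 3) and the paced mean 8.08 ± 0.18 (SD, n = 3), a difference of -0.70 (SE 0.16), or 1.63-fold lower in paced animals. With an offset of 10 in place of 50 the difference was -0.81 (SE 0.18), and with plain subtraction of the background it was -1.49 (SE 0.48). In plain subtraction, values under 32 units were set to 32. The median signal of paced replicate 1, at 26.6 units over the background, was under this floor, so the size of that difference depends on it. With the offset of 50 and quantile normalization, no probe of the 322 had a more negative difference. This rank did not hold in the fold changes that the paper lists, where miR-30c-3p and miR-27b-5p, among others, fell more than miR-486. The lower level in paced animals was part of the choice of miR-486. The authors' processed intensities were 246, 382 and 388 in sham and 141, 187 and 213 in paced replicates 1, 2 and 3, again without overlap.

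Of the 3 erythroid miRNAs, only miR-486 had paced values all below the sham values after quantile normalization. Over all 322 probes this was so for 10.2%, and over the 104 probes detected on every array for 4.81%. The groups of miR-451 did not overlap either when the arrays were scaled by the median of their detected probes (difference -0.48) or when sham replicate 2 was left out (-0.48). Because the contrast entered the choice, nothing is read from the count of 1 in 3.

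**Figure D2:**
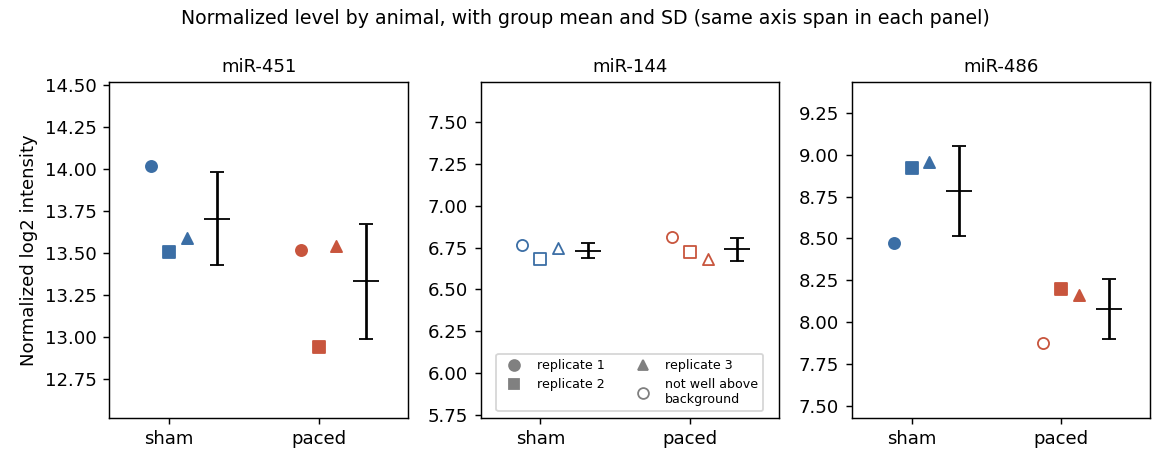
Normalized log2 intensity of the 3 erythroid miRNAs in each animal, with the group mean and SD (n = 3) beside the points and 2 log2 units shown in each panel. Filled symbols were well above background and open symbols were not. Paced and sham animals overlapped for miR-451 and miR-144 but not for miR-486.

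After quantile normalization, the level of miR-486 was ordered much like the background of the arrays. Ordered from the lowest to the highest empty-spot signal, the arrays were sham replicates 2, 3 and 1 and paced replicates 2, 3 and 1, and their log2 intensities of miR-486 were 8.92, 8.96, 8.47, 8.20, 8.16 and 7.88. Apart from the first pair, each step up in background went with a lower value, within both groups as well as between them. Across the 6 arrays, Pearson's r with the log2 empty-spot median was -0.94 and Spearman's rho was -0.94, and r was -0.95 without the 2 arrays farthest from the median background (sham replicates 2 and 3). These values are a description, since the same 6 arrays also differ by group. Within the groups, the log2 intensity of miR-486 fell by 0.29 for each doubling of the background. Without normalization between arrays the slope within the groups turned to 0.07 and r was -0.58. For miR-451 the corresponding r was -0.08 and rho was -0.09, and within the groups its level rose by 0.34 for each doubling.

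With the log2 empty-spot signal as a covariate, a fit added after the data were seen, the difference of miR-486 between paced and sham animals shrank to -0.31 (SE 0.16). That of miR-451 grew to -0.82 (SE 0.25) in the same fit. Group and background went together so closely on these arrays that their parts in the lower miR-486 cannot be told apart.

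**Figure D3:**
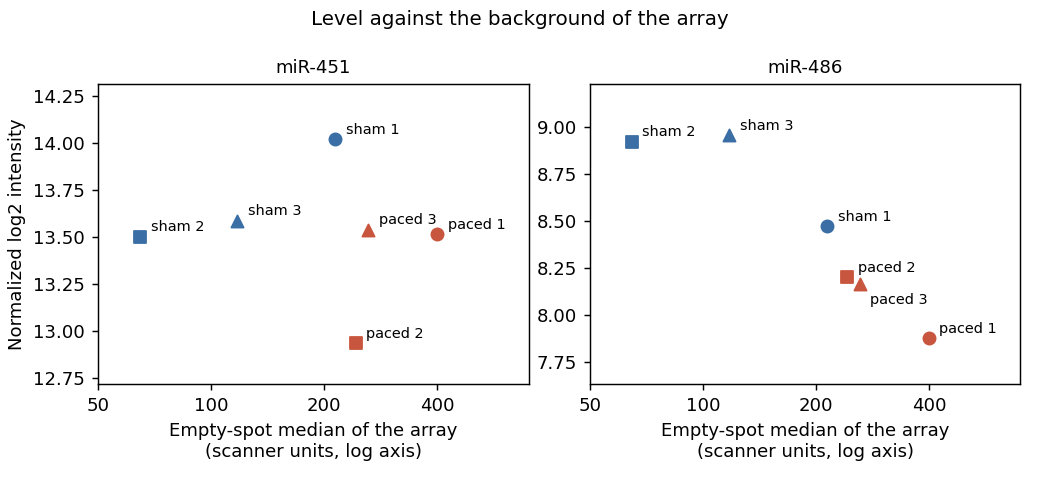
Normalized log2 intensity of miR-451 and miR-486 against the empty-spot median of the same array (scanner units, log axis), 1 point per animal. miR-486 declined from 8.96 to 7.88 as the background rose after quantile normalization, whereas miR-451 showed no such order (r = -0.08).

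Across animals, the correlation of miR-451 with miR-486 did not pass the threshold and its size depended on the normalization. Sham replicate 1 had the highest miR-451 of the sham animals (0.32 above its group mean on the log2 scale) and the lowest miR-486 (-0.31 from its group mean). Paced replicate 2 had the lowest miR-451 of the paced animals (-0.39) and the highest miR-486 (0.12). In 5 of the 6 animals the deviations of the 2 miRNAs from their group means had opposite signs, the exception being paced replicate 3 (0.21 and 0.08). Over the 6 arrays Pearson's r was 0.24 and Spearman's rho was 0.26 (exact permutation tests, two-sided, p = 0.699 and 0.658, adjusted over 3 pairs 0.699 and 0.803). These values are a description, since both groups entered them and the lower miR-486 of paced animals was part of the choice. The positive r takes in the lower paced means of both miRNAs, whereas within the groups most deviations were opposite in sign. No r within the groups was computed for this pair. Without the arrays farthest from the median of miR-451, sham replicate 1 and paced replicate 2, r was 0.34. It was 0.82 without normalization between arrays (exact permutation test, n = 6, adjusted p = 0.15) and 0.63 with the arrays scaled by the median of their detected probes (adjusted p = 0.271, also exact).

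The correlation of miR-451 with miR-144, its partner on the primary transcript, was r = 0.27 and rho = 0.31 (exact permutation tests, n = 6, p = 0.646 and 0.564, adjusted 0.699 and 0.803). It fell to r = 0.08 without the same 2 arrays. For miR-144 with miR-486 it was r = -0.39 and rho = -0.14 (exact permutation tests, n = 6, p = 0.424 and 0.803, adjusted 0.699 and 0.803), and r = -0.26 without paced replicates 1 and 3. None of the 3 pairs passed the threshold, and both pairs with miR-144 hold a probe at background. The values of these pairs too are a description, since both groups entered them.

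The probes most like miR-451 over the 6 arrays, among the other 103 well above background on all of them, were miR-455-3p (r = 0.86), miR-133b (r = 0.86) and miR-361-5p (r = 0.75). None of these showed a paced versus sham difference larger than 2 SE, with values of -0.08 (SE 0.12) for miR-455-3p and -0.12 (SE 0.10) for miR-361-5p. miR-133b, a muscle miRNA, is so bright that quantile normalization holds it nearly constant, with an SD of 0.01 within each group. The probes most like miR-486 were miR-128 (r = 0.78), miR-133a-5p (r = 0.77) and miR-125b (r = 0.70). miR-128 was lower in every paced animal than in any sham animal (difference -0.21, SE 0.08), and with each group centred on its mean the likeness of miR-128 to miR-486 fell to r = 0.19. miR-133a-5p, the passenger strand of a muscle miRNA, had r = 0.49 after centring and had a difference of -0.34 (SE 0.16).

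Other miRNAs known to be abundant in red cells were compared next, from a list that holds none of the 3. The array had probes for 6 of the 8, but none named miR-25 or miR-93. The differences of 5 were small and within their errors or close to them, from -0.11 (SE 0.10) for miR-15b to 0.14 (SE 0.23) for miR-15a, with miR-16 at -0.09 (SE 0.11), miR-92a at -0.05 (SE 0.09) and miR-185 at -0.07 (SE 0.15). miR-363, from the miR-106a cluster, was at -0.42 (SE 0.08, limma, adjusted p = 0.134) and its groups did not overlap, although it was well above background in only 2 sham animals and 1 paced animal, or 3 and 2 against the nearest empty spots. The median difference of the 6 probes was -0.08, beside 0.00 over all 322 probes and -0.03 over the 104. The summed normalized intensity of the 6 probes ran from 14449 to 16683 on the sham arrays and from 14801 to 15862 on the paced arrays, so the groups overlapped. miR-16 and miR-92a, the brightest of the list (sham means 12.95 and 11.81), carried most of this sum. The samples were whole tissue, so how much of the list's signal came from red cells is not known.

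White cells and platelets also enter tissue with blood. Their list had 8 probes and none for miR-223, the myeloid marker, and for 4 of the 8 no array rose well above background, among them both arms of miR-142, which is found throughout blood cell lineages. Against the nearest empty spots miR-142-5p was above background on 1 array. miR-150, a lymphocyte miRNA, was well above background on all 6 arrays, with a sham mean of 9.71 ± 0.26 (SD, n = 3) and a paced mean of 9.59 ± 0.25 (SD, n = 3). miR-146a-5p was so too, with a difference of 0.11 (SE 0.24). The median difference of this list was 0.06, and its differences ranged from -0.12 to 0.45. The summed intensity was 1986 to 2127 in sham animals, inside the range of 1796 to 2576 in paced animals.

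Muscle probes are of interest beside miR-486 because muscle is its other known source. The median difference of the 9 muscle probes was 0.00 and the range was -0.34 to 0.37. The lowest was miR-133a-5p and the highest was miR-1, at 0.37 (SE 0.32), whose paced values spread widely. miR-499-5p, which is carried in a cardiac myosin gene, was at 0.17 (SE 0.19). miR-378, from the gene of a metabolic coactivator, was at -0.14 (SE 0.10). The summed intensity of the muscle list, from 67226 to 68935 in sham animals, also lay inside the paced range of 64749 to 74766. The median of the list was that of miR-133a-3p. This probe and miR-133b were the brightest of the list, and quantile normalization holds both nearly constant (SD 0.01 within each group). The median and the sum of the muscle list are thus partly set by the normalization. In the endothelial list of 5 probes the median was 0.04. miR-126-3p, the main miRNA of endothelium, had a sham mean of 13.10 ± 0.15 (SD, n = 3) and a paced mean of 13.08 ± 0.11 (SD, n = 3). miR-221-3p and miR-222 were at 0.05 (SE 0.16) and 0.04 (SE 0.18). The part of blood or muscle content in the lower miR-486 was not tested.

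After adjustment over all 322 probes, 0 of the 28 probes of these 4 lists passed the threshold of 0.05 in limma, beside 0% of the array. At an unadjusted p of 0.05 the count was 2, miR-363 lower and miR-126-5p higher (0.37, SE 0.13), beside 10.6% of the array, and no array held miR-126-5p well above background (1 array against the nearest empty spots). The methods' t-test gave 1 at that threshold, beside 12.1% of the array, and 0 after adjustment.

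**Figure D4:**
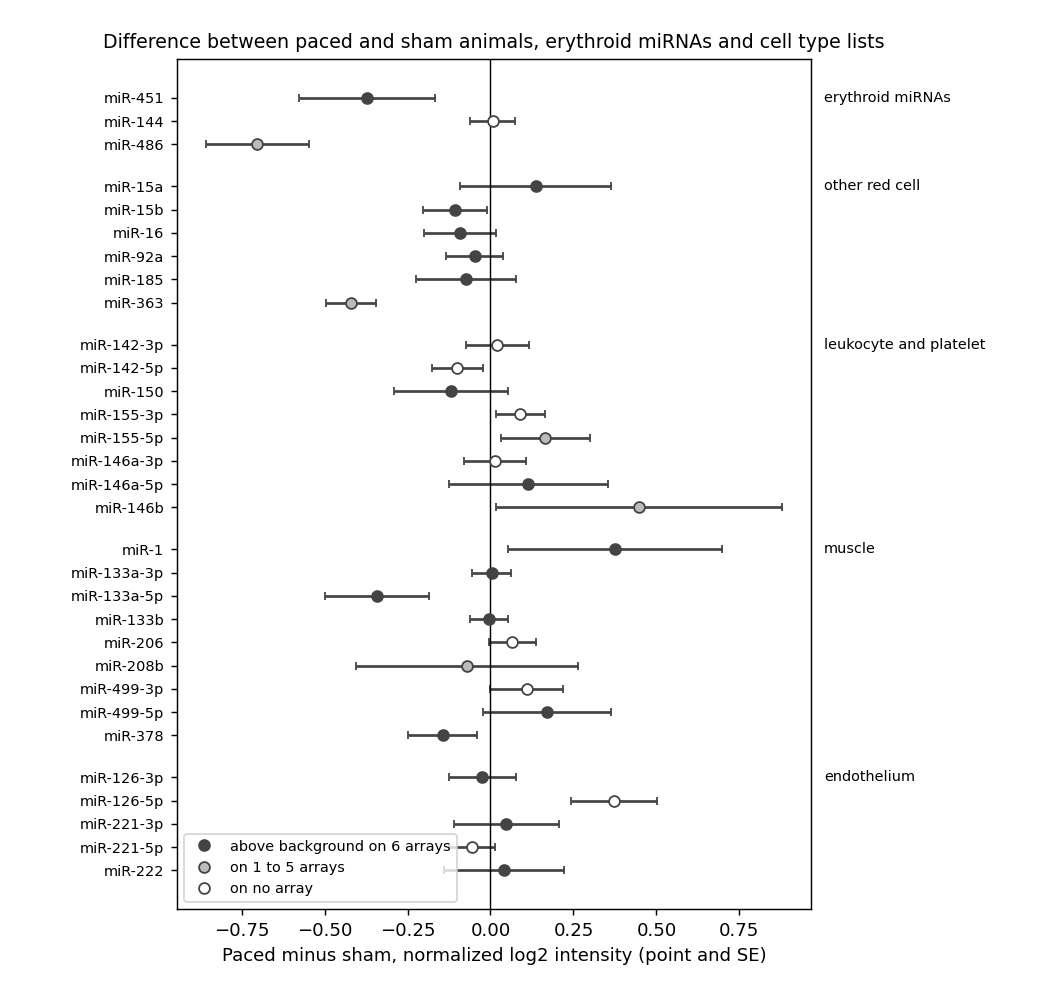
Paced minus sham difference in normalized log2 intensity (point and SE, n = 3 in each group) of the 3 erythroid miRNAs and of the probes of the 4 cell type lists. Filled, grey and open points were well above background on 6, on 1 to 5 and on 0 arrays. Most list probes lay near 0, and miR-486 lay at -0.70.

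The repeat spots show how finely each probe was read. For miR-451 the coefficient of variation over the 9 spots was between 2.02% and 9.32%, for miR-486 between 2.61% and 12.9%, and for miR-144 between 4.67% and 10.6%. The probe of miR-144 lay at background, so its coefficient describes the evenness of the background and not the precision of a level. The spots of a probe lay in 3 rows of the array, and the signal in the bottom row was lower than in the top row for all 3 probes on all 6 arrays. The bottom row gave 0.82 to 0.96 of the top row for miR-451 and 0.78 to 0.98 for miR-486. On sham replicate 2 the 9 spots of miR-486 ran from 344 to 461 units and on paced replicate 2 from 423 to 617 units, while the raw medians of the 6 animals ran from 398 to 563 units.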

How the data were processed

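Array data of LA RNA from 3 sham and 3 paced pigs were used, grouped by the sample titles. For each array the authors deposited the median Cy3 intensity of each of 3968 spots on a linear scale, read with a GenePix scanner and Array-Pro, with no background removed. They also deposited 1 processed intensity per probe and array, which appears background-subtracted and normalized by steps not given in the sources used here. These were used as an alternative. The spot intensities were corrected with normexp in limma (version 3.58.1, R 4.3.3, offset 50), quantile-normalized over the 2898 miRNA spots, put on the log2 scale and averaged for each probe. Groups were compared with lmFit and eBayes over all 322 probes, with Benjamini-Hochberg adjustment. SE is that of limma. The samples are separate animals, and their number limits the precision. Correlations between the 3 miRNAs were tested over all pairings of the 6 arrays, with both groups together, and are a description.

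The 3 miRNAs, the lists and the tests were chosen with earlier results of these data known. The named miRNAs are the 3 themselves, their 3 most similar probes by Pearson's r, and probes of the lists, chiefly those well above background on all arrays. Background, normalization, summary of spots, test, replicate block and animals left out were varied 1 at a time. The fits were tested on simulated data, with 30 probes shifted by 1 log2 unit and independent noise of SD 0.15. The simulation held no background difference between groups, so it says nothing about the part of background in these arrays. Sequences are those of the target column of the array files. The qPCR and protein data were not analysed here. Figures were drawn with matplotlib 3.10.9.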

Additional observations from a re-analysis of the deposited data

How the results depend on the processing

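The difference of miR-451 stayed negative under all 17 alternatives, from -0.82 with the empty-spot signal as a covariate to -0.17, and with 1 animal left out it lay between -0.48 and -0.17. That of miR-486 was negative under all 17 as well. Its groups did not overlap under any setting that changed the values. The covariate and the replicate block change only the fit, so overlap was not examined there. The difference of miR-486 was -1.49 with plain subtraction, in which values under 32 units were set to 32, and -0.31 with the covariate. It was -0.47 when arrays were scaled by the median of their detected probes, and from -0.85 to -0.60 with 1 animal left out. This scaling moved the median of all probes by 0.44, and no normalization moved it by 0.27. The difference of miR-144, a probe at background, changed sign with cyclic loess (-0.0089), the authors' processed values (-0.19) and the covariate (-0.082), was 0.56 with the scaling, 0.40 without normalization and 0.074 against the 15 nearest empty spots, and lay between -0.024 and 0.037 with 1 animal left out. The correlation of miR-451 with miR-144 turned to -0.51 with plain subtraction and -0.49 with the scaling, and that of miR-451 with miR-486 ranged from 0.19 to 0.82 (without normalization). None passed the adjusted threshold. The list count was 11 of 28 with the scaling, which called 171 of all 322 probes, and between 0 and 2 with 1 animal left out, the 2 being without paced replicate 1, where 9 of 322 were called. The cause of these changes was not tested. With the replicate number as a block the differences were the same, with SE of 0.12 for miR-451, 0.073 for miR-144 and 0.079 for miR-486, but the numbers are not known to pair animals. Deviations of same-numbered arrays correlated at 0.17, -0.014 and 0.21, and 4 of 6 arrays correlated best with their own number. Against the nearest empty spots the detection counts of the 3 miRNAs were the same. Among the list probes, miR-363 went from 3 to 5 arrays, miR-155-5p from 4 to 5 and miR-146b from 2 to 3. Those of miR-126-5p and miR-142-5p went from 0 to 1. A level of miR-144 below the background could not have been measured.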
